A study of Mus musculus with 6 samples.

Results

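The subject is a set of 41 genes of macrophages and other myeloid cells, followed in intestinal crypts of mice that express an activated form of the transcriptional coactivator YAP. The members were chosen by name, as genes known from macrophages, dendritic cells, granulocytes or leukocytes at large. Earlier results of these data were known when they were chosen, and each is read from 1 probe set. All 41 were measured among the 19938 genes tested. They comprise 17 macrophage genes, 4 dendritic cell genes, 3 granulocyte genes and 17 genes shared among leukocytes.

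RNA came from crypts, the epithelial pits of the gut lining, of 3 mice labelled control and 3 labelled YAP Tg, with 1 Affymetrix array per mouse. By the series title the transgenic mice carry YAP-S127A with Villin-rtTA. S127A removes a serine through which the Hippo kinases restrain YAP, and rtTA is a doxycycline-dependent activator that the villin promoter places in intestinal epithelial cells. The mice had doxycycline for 2 days, and 4 mM EDTA then freed the crypts, which were not cultured. The design text describes the mice as treated without separating the groups, and the sources used here give neither the transgenes and treatment of the control mice nor the strain, age and sex of any mouse, so that effects of doxycycline and of YAP cannot be told apart. The transgene is thus placed in the epithelium, and the members describe cells that the villin promoter does not serve.

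Macrophages of the gut live in the connective tissue beneath the epithelium, the lamina propria, where they take up bacteria and dying cells, while lymphocytes sit between the epithelial cells themselves. A crypt preparation is meant to hold epithelium, and carries with it whatever leukocytes stay attached. Macrophages depend on the growth factor receptor encoded by Csf1r and on the transcription factor PU.1, encoded by Spi1, which binds purine-rich DNA called the PU box. Many of their receptors have no signalling tail of their own and pair with the small adaptors DAP12 (Tyrobp) or the Fc receptor gamma chain (Fcer1g), whose tyrosine motifs recruit the kinase Syk.

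The labelled tissue was checked on epithelial markers. Epcam stood at 11.63 to 11.73 on control and 11.68 to 11.96 on transgenic arrays, on a log2 scale where 1 unit is a doubling of signal. Of 12 epithelial and crypt markers, 4 rose and 3 fell, the latter Lgr5, Olfm4 and Cdx1. The median signal of all genes was 6.74 to 6.79 on every array. Probe sets regarded as array controls had a median of 4.97 to 4.99 for the control mice, against 5.33, 5.15 and 5.03 for transgenic mice 1, 2 and 3, so that transgenic mouse 1 also had the highest signal where no gene is named. With 3 arrays in each group precision is low, and in bulk RNA fewer cells of a type and less RNA per cell cannot be told apart.

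The promoters of several members are shown because PU.1 is the transcription factor that myeloid genes have in common. RefSeq windows of 300 bases on GRCm38.p6, 250 before and 50 after a gene's start, were matched to 29 of the 41 members. The PU box was searched as GAGGAA on the gene's strand and as TTCCTC, its reverse complement, for the other strand, with overlapping matches counted. Among members that rose, Csf1r, Tyrobp and Clec4n had no window. C1qc, Cd68, Ncf1 and Fcer1g had no match within the 150 bases before the start, and of these only Fcer1g is shown. The 150 bases before the start follow for 5 members whose signal rose, with the motif in capitals and in the direction of the gene.
C1qb (chr4:136886201-136886350, minus strand): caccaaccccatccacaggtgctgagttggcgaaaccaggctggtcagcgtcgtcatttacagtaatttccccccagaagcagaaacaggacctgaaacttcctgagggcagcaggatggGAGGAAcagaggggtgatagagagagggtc
Mrc1 (chr2:14229264-14229413, plus strand): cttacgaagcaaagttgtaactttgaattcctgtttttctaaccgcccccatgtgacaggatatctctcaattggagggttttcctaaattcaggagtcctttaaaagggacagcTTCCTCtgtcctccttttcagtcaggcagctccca
Laptm5 (chr4:130913166-130913315, plus strand): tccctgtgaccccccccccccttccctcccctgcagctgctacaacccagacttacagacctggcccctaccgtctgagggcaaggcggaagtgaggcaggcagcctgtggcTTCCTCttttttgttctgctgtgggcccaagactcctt
Fcgr3 (chr1:171059395-171059544, minus strand): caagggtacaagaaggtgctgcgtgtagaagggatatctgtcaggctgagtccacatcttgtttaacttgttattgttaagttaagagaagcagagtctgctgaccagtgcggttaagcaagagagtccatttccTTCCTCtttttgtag
Fcer1g (chr1:171234350-171234499, minus strand): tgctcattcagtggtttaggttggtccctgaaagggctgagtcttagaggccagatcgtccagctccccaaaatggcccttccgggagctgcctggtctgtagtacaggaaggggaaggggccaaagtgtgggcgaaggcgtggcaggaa

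The PU box began 30 bases before the start of C1qb, 35 before that of Mrc1, 38 before that of Laptm5 and 15 before the start of Fcgr3 shown. Mrc1 held 2 more matches farther upstream, and Fcer1g held none in its window. By class, 9 of 12 macrophage genes with a window held the motif, 6 of 10 shared leukocyte genes, 2 of 3 granulocyte genes and 0 of 4 dendritic cell genes. The motif stood in the windows of 17 of the 29 members (58.6%), and in those of 30.2% of the tested genes that have one. The motif also stood in 4 of 7 genes of all leukocytes (57.1%) and in 6 of 10 T cell and intraepithelial lymphocyte genes (60.0%), shares close to that of the members. It stood in 6 of 8 members that rose (75.0%) and in 11 of 21 that did not pass the test (52.4%). A match says only that these letters are there.

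**Figure D1:**
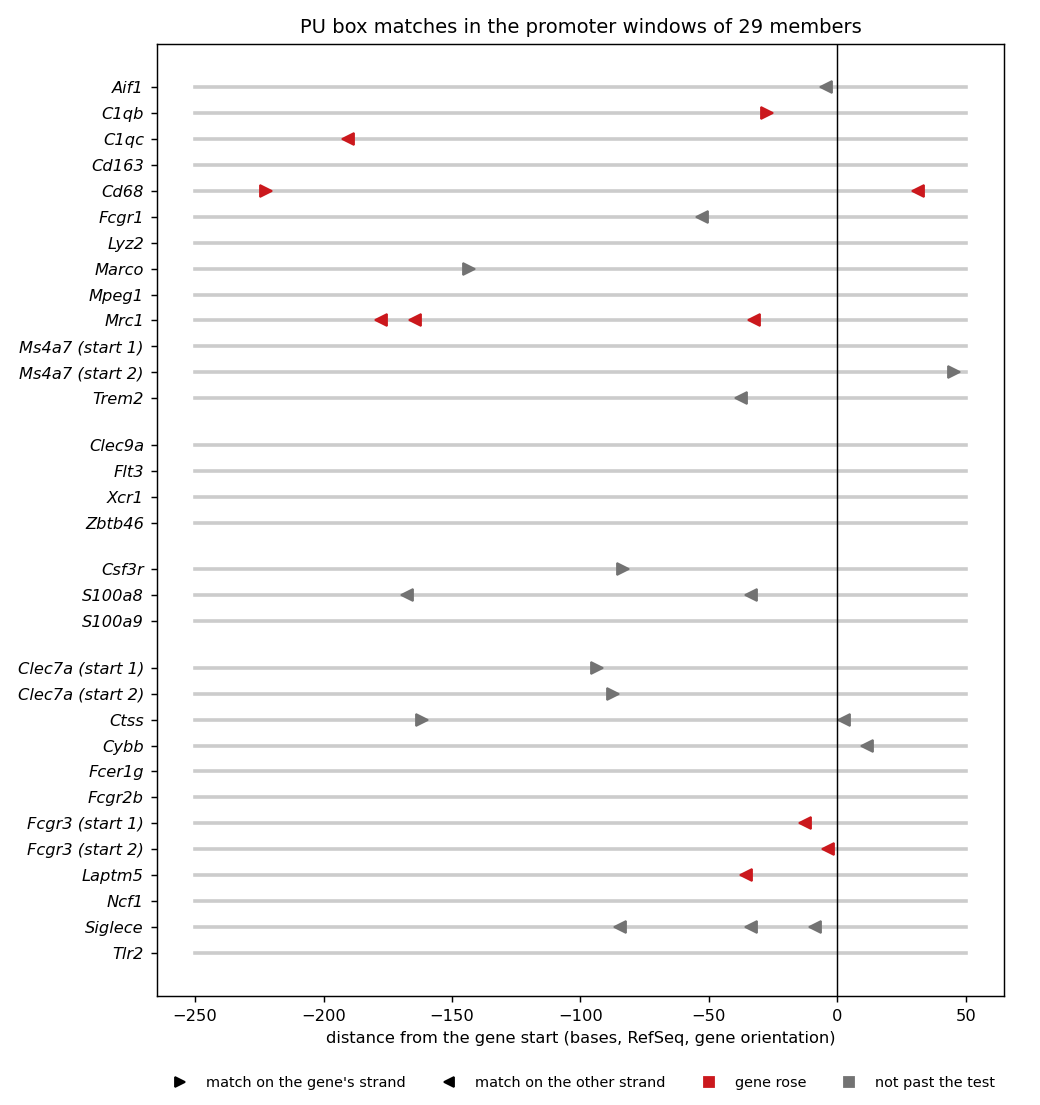
Positions of the PU box in the RefSeq promoter windows of 29 member genes, by class, with the distance from the gene start in bases on the x axis; triangles point along or against the gene, and red marks genes that rose. Matches lie in 9 of 12 macrophage genes and in 0 of 4 dendritic cell genes, and several of those in macrophage genes lie within 60 bases before the start.

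In the transgenic crypts 11 of the 41 members rose and 0 fell (limma, adjusted p below 0.05), where 7.50% of all genes rose and 6.70% fell. Of the 17 macrophage genes 5 rose, C1qb, C1qc, Csf1r, Mrc1 and Cd68, and of the 17 shared leukocyte genes 6 rose, Tyrobp, Fcer1g, Laptm5, Fcgr3, Ncf1 and Clec4n. None of the 4 dendritic cell genes and none of the 3 granulocyte genes passed the test. The increases ran from 1.42-fold to 3.27-fold, and 6 of them were at least 2-fold. The median log2 change was 0.40 over all members, 0.41 over the macrophage genes and 0.55 over the shared leukocyte genes, against 0.03 over all genes tested. The share of members that rose was 26.8%, a description only, as the members were chosen with earlier results of these data known.

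The count of 11 depended on the arrays used. It was 5, 6 or 4 without control mouse 1, 2 or 3 and 7, 15 or 14 without transgenic mouse 1, 2 or 3, and it was 4 at an adjusted p below 0.01. Laptm5, Ncf1, Tyrobp and Csf1r were called in every alternative that tested them.

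**Figure D2:**
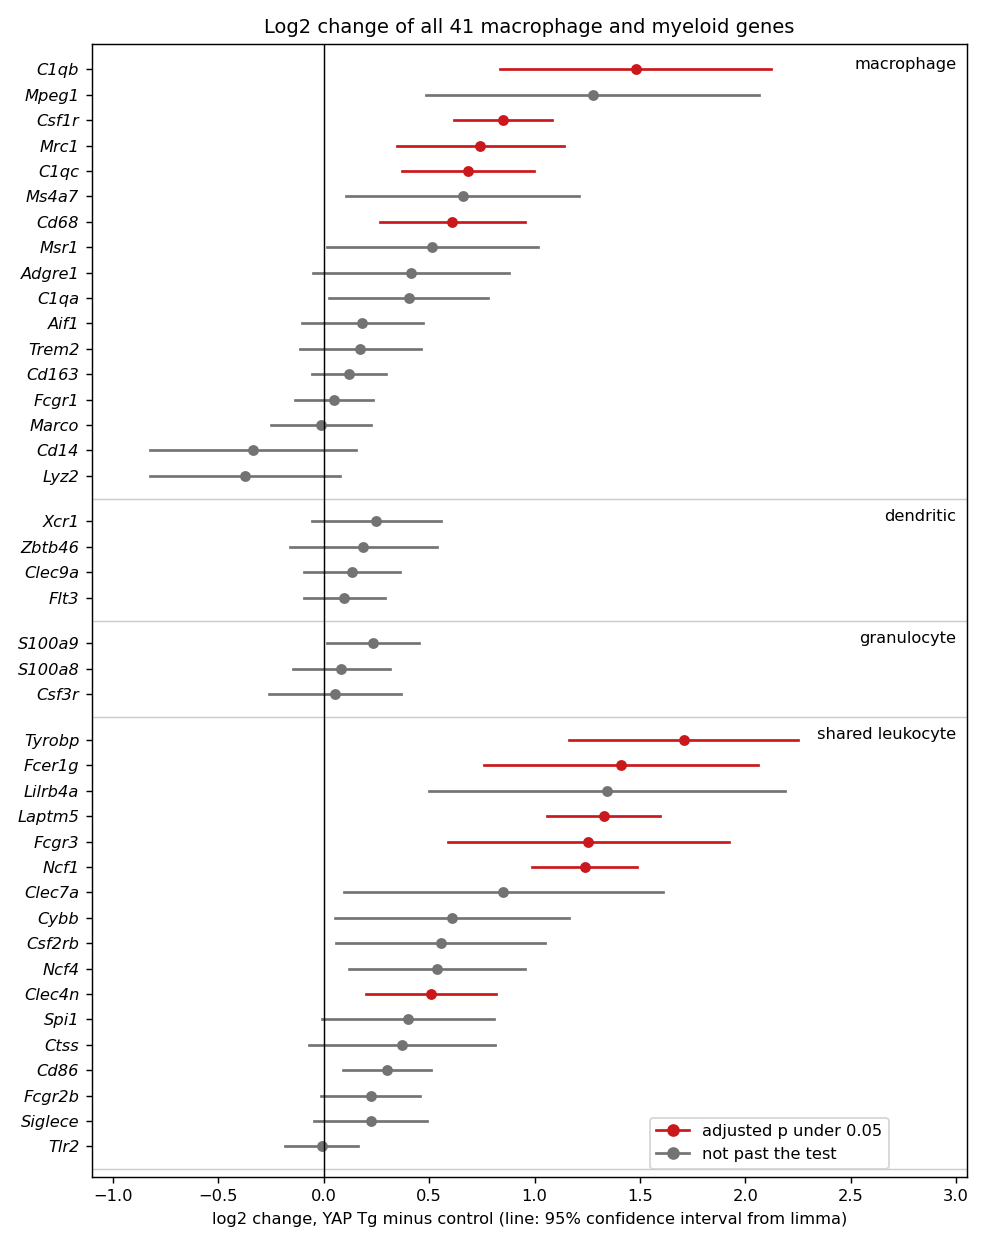
Log2 change (YAP Tg minus control, x axis) of each of the 41 members by class, with the 95% confidence interval from limma as a line; red marks an adjusted p below 0.05. Increases of over 1 log2 unit occur among macrophage and shared leukocyte genes, and the lowest end among the intervals of Tyrobp, C1qb, Fcer1g and Laptm5 is 0.76. The other genes with such increases have lower ends of 0.99 (Ncf1), 0.59 (Fcgr3), 0.50 (Lilrb4a) and 0.49 (Mpeg1).

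Among macrophage genes, C1qb had the largest change. C1qa, C1qb and C1qc are neighbouring genes that encode the 3 chains of C1q, the protein that starts the classical complement pathway and that tissue macrophages make. C1qb stood at 5.61, 6.39 and 5.89 in the control crypts and at 7.82, 7.48 and 7.03 in the transgenic crypts. The groups did not overlap, and the change was 1.48 (SE 0.26, adjusted p = 0.0168 by limma). C1qc stood at 5.60, 5.85 and 5.84 in control and 6.68, 6.35 and 6.31 in transgenic crypts, a change of 0.68 (SE 0.13, adjusted p = 0.0200 by limma). C1qa stood at 6.27, 6.39 and 6.33 in control and 7.06, 6.46 and 6.67 in transgenic crypts. Its 2 groups did not overlap either, but the difference of 0.40 missed the threshold (adjusted p = 0.149 by limma). The calls of C1qb and C1qc were lost without control mouse 1 or 3, and that of C1qc without control mouse 2 too (adjusted p up to 0.0863). C1qc was also not called with the replicate number as a block (adjusted p = 0.0758 by limma).

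Csf1r, the receptor for the growth factors CSF1 and IL-34, had the smallest adjusted p of the macrophage genes. Its values were 5.59, 5.82 and 5.86 in control and 6.66, 6.54 and 6.62 in transgenic crypts, without overlap and with the narrower spread in the transgenic mice. The change was 0.85 (95% confidence interval 0.62 to 1.08, adjusted p = 0.00377 by limma), and it kept its call with any 1 mouse left out.

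The scavenging receptors of macrophages followed in part. Mrc1, the mannose receptor, stood at 5.31, 5.73 and 5.28 in control and 6.13, 6.41 and 6.003 in transgenic crypts, a change of 0.74 (SE 0.16, adjusted p = 0.0316 by limma). Cd68, a glycoprotein of macrophage lysosomes, stood at 6.11, 6.23 and 6.14 in control and at 7.05, 6.76 and 6.50 in transgenic crypts. The groups of Cd68 did not overlap, and its change was 0.61 (SE 0.14, adjusted p = 0.0385 by limma). Neither gene was called without transgenic mouse 1 or control mouse 1 or 3, nor was Cd68 in the absence of control mouse 2 (adjusted p up to 0.147). Mrc1 was also not called without transgenic mouse 3 (adjusted p up to 0.132). With all 6 arrays, quantile normalization took away the calls of Mrc1 (adjusted p = 0.0600 by limma) and Cd68 (adjusted p = 0.0710 by limma). Cd68 lost its call with the replicate number as a block too (adjusted p = 0.0747 by limma).

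Other scavenger genes did not pass. Msr1, the class A scavenger receptor, ranged from 3.91 to 4.00 in control crypts and reached 4.91, 4.40 and 4.06 in transgenic mice 1, 2 and 3 (difference 0.51 in log2 units, adjusted p = 0.159 by limma). Cd163, the receptor for haptoglobin-bound haemoglobin, had a control mean of 5.01 ± 0.06 (SD, n = 3, as for each ± that follows) and a transgenic mean of 5.13 ± 0.07. Marco, a scavenger receptor of other macrophage populations, stood at 5.84 ± 0.12 and 5.83 ± 0.12. The interval of the difference ran from -0.06 to 0.30 for Cd163 and from -0.25 to 0.23 for Marco. Larger shifts lie outside the interval of Marco. The transgenic mean of Cd163 lay below the median of the array controls (5.17), and its control mean was close to theirs (4.97). Its interval therefore does not bound a shift.

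Mpeg1, which encodes the pore-forming protein perforin-2, lay just outside the threshold. It stood at 5.55, 5.87 and 5.51 in control and 7.56, 6.97 and 6.23 in transgenic crypts, or 1.28 higher in log2 units (SE 0.33, adjusted p = 0.0503 by limma). The groups of Mpeg1 did not overlap, transgenic mouse 3 lay nearest to the controls, and it passed the test without that mouse. Ms4a7, a membrane protein of tissue macrophages, was highest in the same mouse as Mpeg1, with 4.99, 4.56 and 4.05 against 3.82 to 3.96 in control (difference 0.66 in log2 units, adjusted p = 0.115 by limma). Adgre1, which encodes a surface antigen long used to stain mouse macrophages, averaged 4.60 ± 0.12 in control crypts and 5.01 ± 0.38 in transgenic ones, with overlapping groups. Clec4n, Ms4a7, Msr1 and Adgre1 had means below the median of the array controls in both groups. Their levels therefore do not stand out from probe sets that name no gene.

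Aif1 (0.18), which encodes the calcium-binding protein IBA1, and Trem2 (0.17), a lipid receptor that pairs with DAP12, did not pass the test. Nor did Fcgr1 (0.05), the high-affinity IgG receptor, and all of these differed by less than 0.2 on the log2 scale. Fcgr1 turned to -0.02 under quantile normalization, and its transgenic mean of 5.11 lay below the median of the array controls (5.17). Lyz2 and Cd14 had negative differences. Lyz2, the lysozyme of myeloid cells, stood at 10.03, 9.39 and 9.97 in control and 9.47, 9.53 and 9.27 in transgenic crypts (difference -0.37 in log2 units, adjusted p = 0.233 by limma). Its near-identical paralog Lyz1, the lysozyme of Paneth cells in the crypt, differed by -0.39, and an array can cross-hybridise between the 2 genes. Cd14, a co-receptor for bacterial lipopolysaccharide, stood at 7.07, 7.17 and 6.95 in control and 6.59, 7.19 and 6.42 in transgenic crypts. Transgenic mouse 2 lay above all controls and the other transgenic mice below them, and without mouse 2 Cd14 was called lower (-0.56, adjusted p = 0.0102 by limma).

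**Figure D3:**
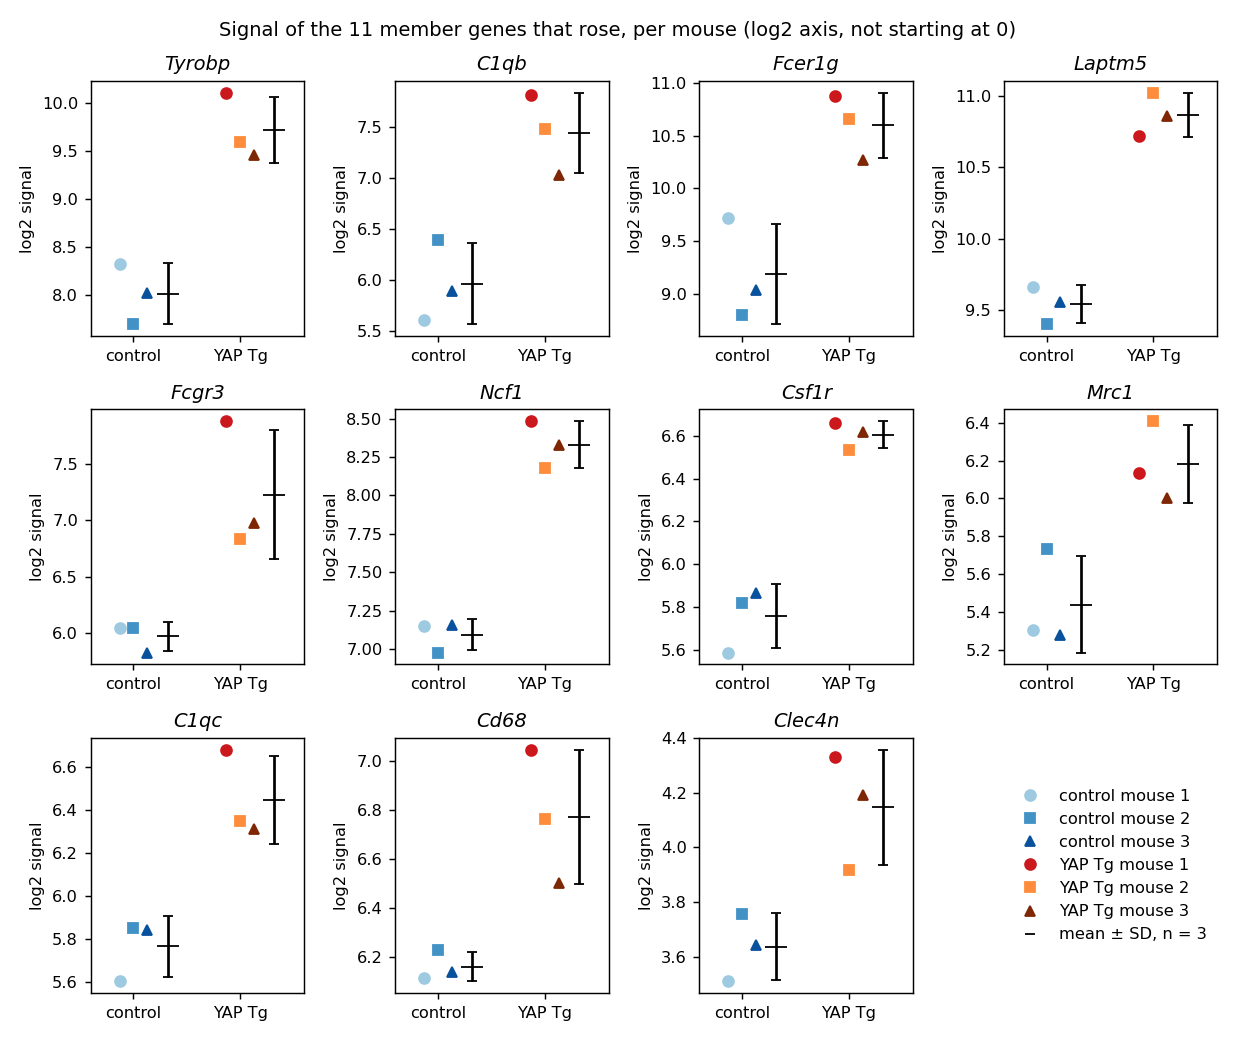
Log2 signal of the 11 members that rose, with 1 point per mouse and the mean ± SD of 3 mice per group; the axes do not start at 0. In each panel all 3 transgenic points lie above all 3 control points, and transgenic mouse 1 is the highest point in all panels except those of Laptm5 and Mrc1.

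Among the shared leukocyte genes both signalling adaptors rose. Tyrobp, which encodes DAP12, stood at 8.32, 7.69 and 8.01 in control and 10.11, 9.59 and 9.45 in transgenic crypts. The change of 1.71 (SE 0.22, adjusted p = 0.00602 by limma) was the largest among the members. Fcer1g, the Fc receptor gamma chain, stood at 9.72, 8.80 and 9.04 in control and 10.87, 10.66 and 10.27 in transgenic crypts, a change of 1.41 (SE 0.27, adjusted p = 0.0204 by limma). Control mouse 1 had the highest control value of both genes, and Fcer1g lost its call without control mouse 2 or 3 or transgenic mouse 1 (adjusted p up to 0.0965). Both adaptors also serve natural killer cells and lymphocytes of the gut epithelium, so neither is specific to myeloid cells.

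Of the receptors for IgG, Fcgr3 passed the test. Fcgr3, an activating receptor for IgG that signals through the gamma chain, stood at 6.05, 6.05 and 5.83 in control and at 7.88, 6.83 and 6.97 in transgenic crypts. The first pair of control values is the same number in the deposited table. The change was 1.25 (SE 0.28, adjusted p = 0.0316 by limma), and the call was lost when any of the controls or transgenic mouse 3 was dropped (adjusted p up to 0.130). Fcgr2b, the inhibitory IgG receptor, averaged 5.43 ± 0.08 in control crypts and 5.65 ± 0.14 in transgenic ones (difference 0.22 in log2 units, adjusted p = 0.185 by limma). The difference between the receptors' changes was not tested. The Fc gamma receptors resemble one another, and signal shared between their probe sets cannot be told apart here.

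Laptm5, a lysosomal membrane protein of blood cells, stood at 9.67, 9.40 and 9.56 in control and 10.72, 11.02 and 10.86 in transgenic crypts, a change of 1.33 (SE 0.11, adjusted p = 0.00148 by limma). Ctss, the lysosomal protease cathepsin S, stood at 9.42, 9.85 and 9.62 in control and at 10.24, 9.66 and 10.10 in transgenic crypts. The groups overlapped through transgenic mouse 2, and the log2 difference was 0.37 (adjusted p = 0.228 by limma).

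The phagocyte NADPH oxidase makes superoxide against microbes and has a membrane core, encoded in part by Cybb, and cytosolic subunits such as Ncf1 and Ncf4. Ncf1 stood at 7.15, 6.97 and 7.16 in control and 8.48, 8.18 and 8.33 in transgenic crypts, a change of 1.24 (SE 0.10, adjusted p = 0.00148 by limma). Ncf4 stood at 5.55, 5.36 and 5.64 in control and 6.38, 5.74 and 6.04 in transgenic crypts (difference 0.54 in log2 units, adjusted p = 0.0974 by limma). Cybb stood at 6.09, 6.29 and 6.02 in control and 7.17, 6.80 and 6.25 in transgenic crypts, where mouse 3 lay within the control range (difference 0.61 in log2 units, adjusted p = 0.140 by limma). Of 4 other oxidase genes measured, Hvcn1 (0.91), Rac2 (0.76) and Cybc1 (0.64) rose, and the membrane subunit Cyba differed by 0.27 (adjusted p = 0.272 by limma). Hvcn1 is the proton channel that offsets the oxidase's charge, and Rac2 is its small GTPase, which lymphocytes express too.

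Among the C-type lectins, Clec4n (dectin-2) and Clec7a (dectin-1) recognise fungal sugars. Clec4n had a low signal, 3.51, 3.76 and 3.64 in control and 4.33, 3.92 and 4.19 in transgenic crypts, and a change of 0.51 just inside the threshold (SE 0.13, adjusted p = 0.0483 by limma). It was called without transgenic mouse 2, but not with any other 1 mouse left out (adjusted p up to 0.176). Its call was also lost with the replicate number as a block (adjusted p = 0.122 by limma). The same held when all arrays were set to a common median (adjusted p = 0.0516 by limma). Clec7a stood at 4.71 to 4.92 in control and at 6.40, 5.55 and 5.10 in transgenic crypts (difference 0.85 in log2 units, adjusted p = 0.133 by limma). Its control mean of 4.83 lay below the median of the array controls (4.97). Lilrb4a, an inhibitory receptor of myeloid cells, lay just outside the threshold with 5.88, 5.99 and 5.77 in control and 7.96, 7.22 and 6.49 in transgenic crypts (difference 1.34 in log2 units, SE 0.35, adjusted p = 0.0530 by limma). For both Clec7a and Lilrb4a transgenic mouse 1 was the highest and mouse 3 the lowest of the transgenic mice.

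Csf2rb, Spi1, Cd86, Siglece and Tlr2 did not pass the test. Csf2rb, the beta chain shared by the receptors for GM-CSF, IL-3 and IL-5, averaged 5.94 ± 0.05 in control crypts and 6.50 ± 0.42 in transgenic ones (difference 0.55 in log2 units, adjusted p = 0.133 by limma). Csf2rb2, a close copy of it, differed by 0.19, and signal could be shared between these 2 genes. Spi1 stood at 5.86, 5.82 and 5.64 in control and 6.54, 5.95 and 6.03 in transgenic crypts (difference 0.40 in log2 units, adjusted p = 0.174 by limma). Cd86, which costimulates T cells, differed by 0.30 (adjusted p = 0.0730 by limma), with 4.94 to 5.06 in control and 5.15 to 5.38 in transgenic crypts. Siglece, an inhibitory receptor for sialic acid, differed by 0.22. Tlr2, a receptor for bacterial lipoproteins, differed by -0.01 (95% confidence interval -0.18 to 0.16), and its sign turned under quantile normalization (0.02).

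Dendritic cell genes did not pass the test, and their median difference was 0.16. Xcr1, the chemokine receptor of cross-presenting dendritic cells, stood at 5.81, 5.76 and 5.81 in control and 6.30, 6.02 and 5.82 in transgenic crypts (difference 0.25 in log2 units, adjusted p = 0.240 by limma). Zbtb46, a transcription factor of the dendritic lineage, differed by 0.19, Clec9a, a receptor for dead cells, by 0.13, and Flt3, the growth factor receptor of their precursors, by 0.10. By limma's test 0 of the 4 passed, adjusted or at an unadjusted p below 0.05, whereas 29.9% of all genes had such an unadjusted p. The upper ends of the 95% confidence intervals were 0.55 for Xcr1, 0.54 for Zbtb46, 0.36 for Clec9a and 0.29 for Flt3. Clec9a lay below the median of the array controls in both groups.

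The granulocyte genes did not pass the test, and their median difference was 0.08. S100a8 and S100a9 encode the 2 chains of calprotectin, an abundant protein of the neutrophil cytoplasm. S100a9 stood at 5.40, 5.22 and 5.47 in control and 5.66, 5.60 and 5.53 in transgenic crypts, without overlap (difference 0.23 in log2 units, adjusted p = 0.147 by limma). S100a8 stood at 4.97 ± 0.15 and 5.06 ± 0.07, and Csf3r, the receptor for the granulocyte growth factor G-CSF, at 5.57 ± 0.02 and 5.63 ± 0.25. The means of S100a8 lay below the median of the array controls in both groups. For Csf3r, control mice 1 and 3 have the same number (5.56) in the deposited table, so its control SD may understate the spread. S100a9 was the 1 granulocyte gene of 3 with an unadjusted p below 0.05. Csf3r turned to -0.02 under quantile normalization. Of 13 further neutrophil markers 1 rose, Ly6g (2.01), a member of the Ly6 family of similar surface proteins, and 0 fell. The granule genes Mpo and Elane differed by -0.10 and -0.04, and the median over that list was 0.14.

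The transgenic mice did not contribute equally. Transgenic mouse 1 had the highest of the transgenic values for 30 of the 41 members, mouse 2 for 5 and mouse 3 for 6. Set against the control mean, the macrophage genes were higher by a median of 0.74, 0.14 and 0.18 in mice 1, 2 and 3. Over the shared leukocyte genes it was 0.98, 0.55 and 0.47, and over all genes it was 0.02, 0.00 and 0.05. The spread within the transgenic group was larger than within the controls for 33 members. The median of the array controls also spread more in the transgenic group (SD 0.15 against 0.01, n = 3 each). Neither this count nor that of the highest mouse was made over all genes, so neither can be read as particular to the members. The transgenic values were all higher than the controls for 24 members and all lower for 0, where 16.5% of all genes lay above and 17.0% below.

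Signal level and calling went together across the array. Of the 41 members 32 had a mean signal below that of the median gene (6.80), and 7 of these rose and 0 fell. Among all genes below that level 2.26% rose and 1.75% fell, and among those above it 12.7% rose. In the lower range the transgenic values were all higher than the controls for 11.1% of genes. The median log2 change was 0.41 over the 32 members and 0.06 over all genes of the lower range. The array controls were higher by 0.20 in the transgenic arrays, most in mouse 1, and their part in the members' increases was not tested. Without transgenic mouse 1 the median change over the members was 0.25, and 7 of them rose.

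**Figure D4:**
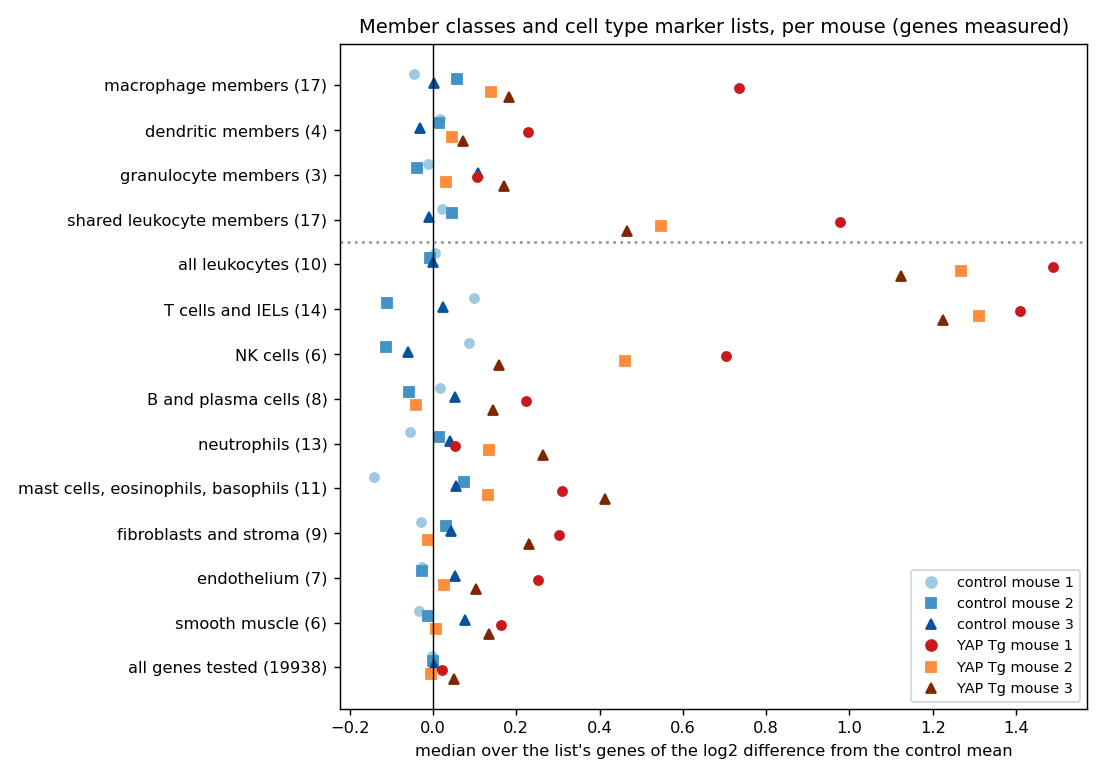
Median over each list's genes of the log2 difference from the control mean (x axis), with 1 point per mouse, for the 4 member classes (above the dotted line), marker lists of other cell types and all genes tested; numbers in brackets are genes measured. Markers of all leukocytes and of T cells lie between 1.12 and 1.49 in the 3 transgenic mice, whereas macrophage members reach 0.74 in transgenic mouse 1 and 0.14 and 0.18 in mice 2 and 3.

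Markers of other cells moved with the members. Of 10 genes of all leukocytes 10 rose, with a mean signal over the list of 8.32 to 8.35 in control and 9.49 to 9.73 in transgenic crypts and a median change of 1.29. Ptprc, which encodes CD45, rose from 8.44 ± 0.02 to 9.76 ± 0.05. Of 14 T cell and intraepithelial lymphocyte genes 13 rose (list mean 8.55 to 8.69 in control and 9.71 to 9.88 in transgenic crypts, median change 1.35), among them Cd96 (1.63) and Cd8a (1.46). Several of the shared leukocyte members can come from these cells too, and the part of lymphocytes in their increase was not tested. Of 6 natural killer cell markers Klrd1 (2.37) and Cd244a (1.02) rose, and 4 were not called. Among the latter, Ncr1, a receptor of natural killer cells, differed by 0.35 (adjusted p = 0.174 by limma). The list mean was 5.70 to 5.86 in control and 6.37 to 6.78 in transgenic crypts. Whether natural killer cells or intraepithelial lymphocytes gave the increases of Klrd1 and Cd244a was not tested.

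Markers of further cells were called in few cases. Of 8 B and plasma cell genes 0 were called, and their list mean was 5.97 to 6.03 in control and 6.10 to 6.38 in transgenic crypts. Of 11 genes of mast cells, eosinophils and basophils 0 were called, with list means of 5.52 to 5.94 and 5.86 to 6.32. By limma 2 and 1 genes of these lists had an unadjusted p below 0.05. Of 9 stromal genes 1 rose, Vim (0.95), an intermediate filament that leukocytes also express, and the collagen genes Col1a1 and Col3a1 differed by 0.20 and 0.13. Of 7 endothelial, 6 smooth muscle and 3 red cell and platelet genes 0 were called, with 2, 1 and 0 at an unadjusted p below 0.05. The stromal, endothelial and smooth muscle lists had medians of 0.15, 0.16 and 0.14, the B and plasma cell list 0.09, the mast cell, eosinophil and basophil list 0.35 and the natural killer cell list 0.37.

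Further genes of the macrophage pathway moved in either direction. Of 20 more macrophage genes measured, Apoe (1.16), an apolipoprotein, rose and 5 fell. These were the chemokines Ccl9 (-1.62) and Ccl6 (-1.11), Mertk (-1.54), a receptor for dying cells, Lyve1 (-0.73), a hyaluronan receptor that lymphatic vessels also carry, and Itgam (-0.43), the integrin CD11b. Mean control signals were 10.85 for Ccl6, 10.44 for Mertk, 9.44 for Ccl9, 7.49 for Lyve1 and 6.68 for Itgam, against 5.76 for Csf1r. Which cells of the preparation gave the signal of the genes that fell was not tested. Cx3cr1, a chemokine receptor of resident gut macrophages, averaged 6.32 ± 0.07 in control crypts and 6.39 ± 0.09 in transgenic ones. Ms4a6c, close in type to Ms4a7, stood at 4.86, 5.24 and 5.27 in control and at 7.06, 6.42 and 5.59 in transgenic crypts (difference 1.24 in log2 units, adjusted p = 0.0751 by limma). The median over the list was 0.15. Of 9 more genes linked to dendritic cells, Itgae (1.37) and Siglech (0.50) rose and 0 fell. Itgae, the integrin CD103, is carried by intraepithelial lymphocytes as well and stands in their list. Xcl1, which encodes the ligand of Xcr1 and is not itself a dendritic cell marker, differed by 1.53 (adjusted p = 0.149 by limma). The median over these 9 genes was 0.32.

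Of 13 further genes of signalling through or beside the adaptors, 2 rose and 2 fell. Lcp2 (1.24), the scaffold SLP-76, and Inpp5d (0.77), the phosphatase SHIP1, rose, each from a value identical on all 3 control arrays in the deposited table, which gives no measure of their control spread. The kinase Syk had means of 7.03 ± 0.12 and 6.69 ± 0.06 and fell by 0.34 on the log2 scale (SE 0.09, adjusted p = 0.0482 by limma), and the scaffold Blnk fell by 0.68 on the log2 scale. Of 8 growth factors and receptors of myeloid cells, Kitl (1.39), the stem cell factor, Csf2ra (0.58), the alpha chain of the GM-CSF receptor, and Flt3l (0.42), the ligand of Flt3, rose. Of the ligands of the Csf1r receptor, Csf1 differed by -0.14 (adjusted p = 0.269 by limma) and Il34 by 0.34 (adjusted p = 0.129 by limma).

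Of 10 transcription factors of myeloid and other blood cells, Id2 (0.94), Runx1 (0.90) and Ikzf1 (0.89) rose and Cebpa (-0.85) fell. Ikzf1, known from lymphocytes above all, was also identical on all 3 control arrays (6.76). Irf8, needed for monocytes and dendritic cells, differed widely among the transgenic mice, with 10.04, 10.95 and 9.20 against 10.18 to 10.36 in control. Class II antigen presentation showed the highest signal in transgenic mouse 2 as well. None of its 6 genes was called by limma, 0 of them also at an unadjusted p below 0.05, and their median difference was -0.27, 0.61 and -0.41 in transgenic mice 1, 2 and 3. Of 9 genes of Toll-like receptor sensing, Tlr1 had means of 7.59 ± 0.26 and 6.01 ± 0.30 and fell by 1.58 on the log2 scale (SE 0.19, adjusted p = 0.00466 by limma) and 0 rose. The median change was 0.70 over the oxidase list, 0.34 over the genes of adaptor signalling and 0.27 over the growth factors and receptors. It was 0.17 over the transcription factors, -0.06 over class II presentation and 0.21 over Toll-like receptor sensing.

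**Figure D5:**
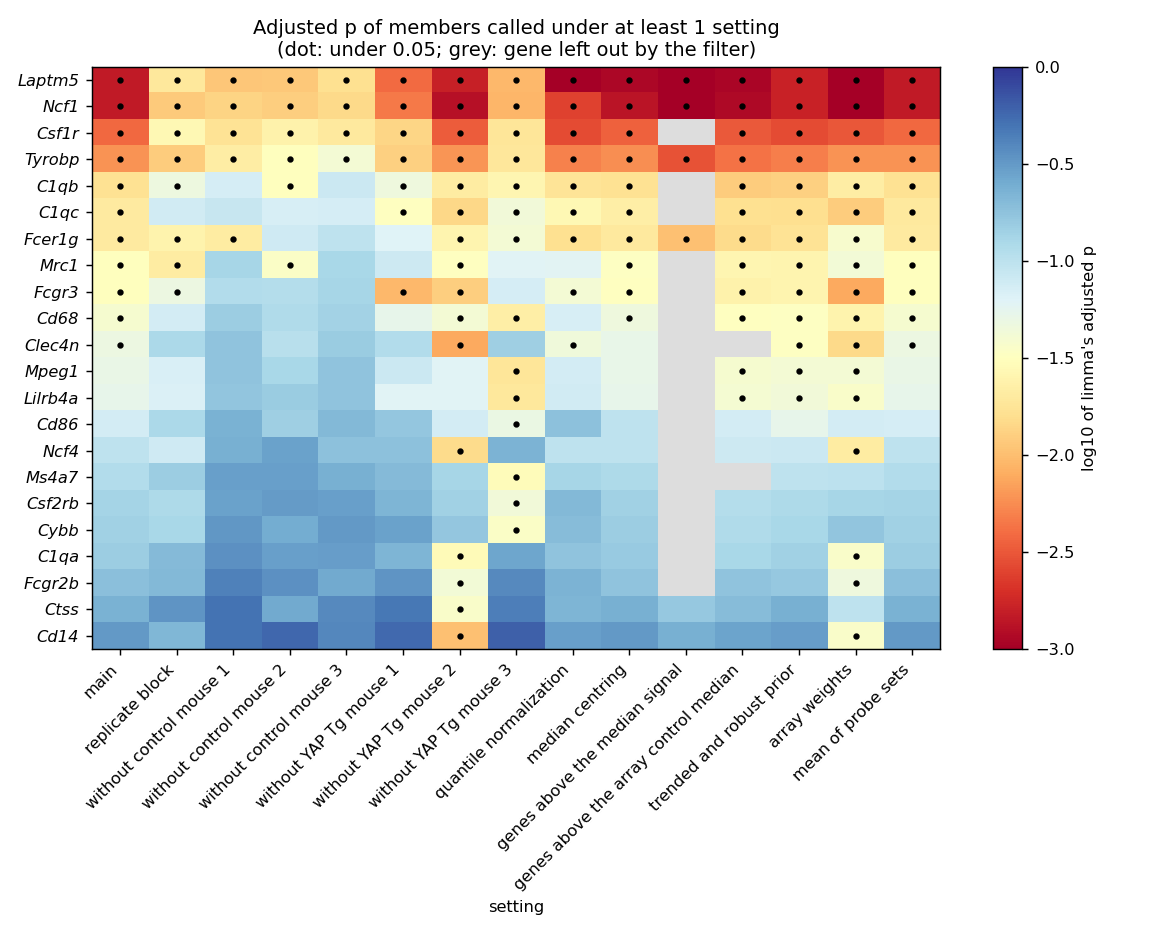
Limma's adjusted p (colour, log10 scale) of the 22 members called under at least 1 setting, in rows by their adjusted p over all 6 arrays, with the settings on the x axis; dots mark values below 0.05 and grey a gene left out by a filter. Laptm5, Ncf1, Csf1r and Tyrobp carry a dot wherever they were tested, and each of the other 7 members called over all 6 arrays loses it when at least 1 of the control mice is left out.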

How the data were processed

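The authors deposited log2 signals of 35556 probe sets on 6 arrays. Per the submitters' processing notes the software was Affymetrix Expression Console 1.1. That the values are log2 follows from their range (1.99 to 14.4). The sources used here do not give the background correction, normalization or probe summary, and arrays set to a common level would hide any shift that all genes share.

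Array controls, here the 6617 probe sets with numbers lower than any annotated one, were left out. Of the others, 21789 had 1 symbol, 1621 several and 5529 none listed, and 21698 of the first were matched by Entrez identifier to RefSeq. The probe set with the highest mean stood for each of 19938 genes, and every member had 1 probe set.

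YAP Tg was compared with control in limma 3.58.1 under R 4.3.3 by a linear model without covariates and eBayes (two-sided), with Benjamini-Hochberg adjustment over all genes and a threshold of 0.05. Each log2 change is transgenic minus control. Groups came from the sample titles, with every sample counted as its own mouse; if they were not separate, p-values measure technical spread only. The fit was tested on simulated data. Members and lists were chosen with earlier results of these data known, so their counts are descriptions and no list test was run. By the naming rule every member is described, and of each other list at most 4 genes past the test and 2 others. The genes Lyve1, Itgam, Csf2rb2, Lyz1 and Xcl1 were added after their values were seen. Alternatives left out each mouse, blocked on replicate number, changed the normalization, filters, prior, array weights, use of several probe sets and threshold. Promoter sequences are RefSeq's, and no protein sequences were used.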

Additional observations from a re-analysis of the deposited data

Results flagged for a closer look

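A signal outside the tested genes differed between the groups. The 6617 probe sets regarded as array controls had a median of 4.97 ± 0.01 over the 3 control arrays and of 5.17 ± 0.15 over the 3 transgenic ones, higher by 0.196 in log2 units. It was highest in transgenic mouse 1 (5.33), which also had the highest transgenic value for 30 of the 41 members, and its part in their values was not tested.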

How the results depend on the processing

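Of 536 values of single members under alternatives, 474 kept direction and side of the threshold, 31 lost the call, 21 gained it and 10 changed sign. Genes called higher, 1495 over all arrays, numbered 669 to 2802 with 1 mouse left out, 2459 with array weights and 661 at an adjusted p below 0.01; genes called lower, 1336, numbered 369 to 3889, 3481 and 386. The 11 members called higher numbered 4 to 15 with 1 mouse left out and 4 at an adjusted p below 0.01, and 4 among genes above the median signal, where 9 members were tested. Members called lower, 0, numbered 0 to 1 with 1 mouse left out and 1 with array weights, Cd14 in each case. Sign changes were all in members that did not pass the test: with 1 mouse left out Marco ran from -0.080 to 0.042, Tlr2 from -0.050 to 0.024 and Csf3r from -0.077 to 0.171; quantile normalization gave -0.017 for Csf3r, -0.017 for Fcgr1 and 0.019 for Tlr2, and array weights gave 0.059 for Marco. The cause was not tested. Correlations across genes between control and transgenic samples of one replicate number were -0.13, 0.01 and 0.10. Those between samples of different numbers ran from -0.13 to 0.12. With 3 arrays in each group these values cannot decide whether the mice were paired. With the replicate number as a block 975 genes were higher and 727 lower, and 8 of the 11 members were called. Signal near the array controls limits what the 6 members below their median in both groups can show. So it does for Clec7a, below that median in control crypts only, and for Cd163 and Fcgr1, below it in transgenic crypts only.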
